A study of Oryza sativa with 12 samples.

Results

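The response of rice roots to phosphate (Pi) supply was compared between Os1400 and WT plants, gene by gene, as the change from +Pi to low-Pi in Os1400 minus the same change in WT. The genes were those with at least 10 counts in each of the 12 root libraries after the 2 count tables were joined by gene identifier. This kept 15280 of the 30742 genes with a row in both tables, and 453 of the 15280 are unannotated transcripts. The libraries form 4 groups of 3, which are WT at +Pi, WT at low-Pi, Os1400 at +Pi, and Os1400 at low-Pi, all from roots of 3-wk-old plants of cultivar Nipponbare. Os1400, labelled max1-1400, is a CRISPR/Cas9 line (12SIII) with a disrupted OsMAX1-1400, a cytochrome P450 gene of strigolactone (SL) biosynthesis, and the plants spent 2 wk in hydroponic culture with either Pi supply. A single line was sequenced, so the disrupted gene and any other change in that line cannot be told apart. The labels do not say whether the libraries of a group came from separate cultures, so that p-values measure the spread between these libraries only. In whole roots, fewer cells of a type and less RNA per cell cannot be told apart. The disrupted gene itself, Os01g0701400, is not among the genes analysed here, and its level does not serve as a check of the labels.

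Plants that run short of Pi switch on genes for Pi uptake, recycling, and saving. In rice, transcription factors of the PHR family drive many of these genes, SPX domain proteins bind and restrain PHR factors while Pi is ample, and the ubiquitin-conjugating enzyme PHO2 (LEAF TIP NECROSIS 1, LTN1) removes Pi transporters from the membrane. Low Pi also raises the synthesis of SLs, hormones that restrain shoot branching and are exuded into soil, where they attract mycorrhizal fungi.

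The WT low-Pi libraries stood apart from the other 9. They held between 17711 and 22077 genes with a count, against 27191 to 30375 in the others. Their total counts (28271749 to 32613875) overlapped with those of Os1400 low-Pi (29596562 to 32984885). Both low-Pi groups had fewer total counts than every +Pi library (34537076 to 41078078). The median SD of log2 CPM (counts relative to library size, as edgeR's cpm function gives them with TMM factors) over the 3 libraries of a group was 0.567 in WT low-Pi and 0.169 to 0.217 in the other groups. A total of 7157 genes failed the count filter because of the WT low-Pi libraries alone, against 39, 48, and 69 genes for the Os1400 low-Pi, Os1400 +Pi, and WT +Pi libraries. Of these, 7020 had 0 counts in at least 1 WT low-Pi library despite 10 or more counts in each of the 9 other libraries. Zero counts occurred in exactly 1 WT low-Pi library for 3600 genes, whose median count in the other WT low-Pi libraries was 132, in exactly 2 for 2113 genes, and in all 3 for 1307 genes. Genes that fell to few counts in WT at low-Pi were thereby kept out, so that the genes tested do not represent such falls. Every difference reported below rests in part on these 3 libraries, and what part their state has in the results was not tested.

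In this fit, which shares 1 estimate of spread per gene, fewer genes passed for a Pi response in Os1400 than in WT, and fitted changes were smaller. A called difference between the genotypes was mostly a fitted response of WT that Os1400 lacked or showed in part. In WT, 7396 of the 15280 genes (48.4%) passed the test for a Pi response (edgeR's quasi-likelihood test on all 12 libraries, Benjamini-Hochberg adjusted p of 0.05 or less), 3961 of them rising and 3435 falling at low-Pi. In Os1400, 3340 genes (21.9%) passed, with 1833 rising and 1507 falling. The 2 counts depend on the shared estimate of spread. Their order was reversed in fits that do not share it. From the 6 libraries of each genotype alone, 4946 genes passed in WT and 6518 in Os1400. With DESeq2 on these libraries the counts were 6175 and 6973, and with limma-voom and weights per group 5274 and 6860. The median size of the response was 0.77 in WT and 0.44 in Os1400 on the log2 scale. Such a median also grows with spread, and the median SD was 0.567 in WT low-Pi against 0.217 in Os1400 low-Pi. What part spread has in the 2 sizes was not tested. Of 2445 genes that passed in both genotypes, 1351 rose in both, 998 fell in both, and 96 moved in opposite directions.

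The difference between the 2 responses passed the test for 2252 genes, 14.7% of those tested, and before adjustment p was 0.05 or less for 4786 genes. The response was more positive in Os1400 for 1075 genes (7.04%) and more negative for 1177 genes (7.7%). With the looser filter filterByExpr, which admits genes with zero counts in WT low-Pi libraries (28691 genes), the same test called 3028 genes more positive and 810 more negative, and the median difference over all genes moved from -0.04 to 0.38. The count was 1168 to 1554 when 1 library outside the WT low-Pi group was left out, and it was 3332, 4484, and 3610 without WT low-Pi replicates 1, 2, and 3. Among the 2252 genes, the median size of the difference was 1.48 on the log2 scale, and the smallest was 0.59. The median size of the genotype difference for these genes was 1.44 at low-Pi and 0.147 at +Pi, values that come from the same libraries as the difference in response.

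The called genes were sorted by their fitted responses, with 0.5 on the log2 scale as the limit of a response. In 1198 genes (53.2% of the called), WT passed this limit and Os1400 did not, 570 of them higher and 628 lower at low-Pi in WT. The response had the same direction but was smaller in Os1400 in 491 genes, with 267 higher and 224 lower at low-Pi. In 322 genes the directions were opposite, 206 with a higher and 116 with a lower level at low-Pi in WT, and in 88 of the 322 both responses passed their own tests. A response beyond the limit in Os1400 alone was found for 184 genes, and a response of the same direction that was larger in Os1400 for 39 genes. The remaining 18 genes had both responses under the limit. For comparison, the same sorting of all 15280 genes put 4894 in the first class, 3156 in the second, 617 in the opposite class, 1665 in the class of Os1400 alone, and 1338 in the larger class. These classes use the same fitted values as the test and are a description.

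**Figure D1:**
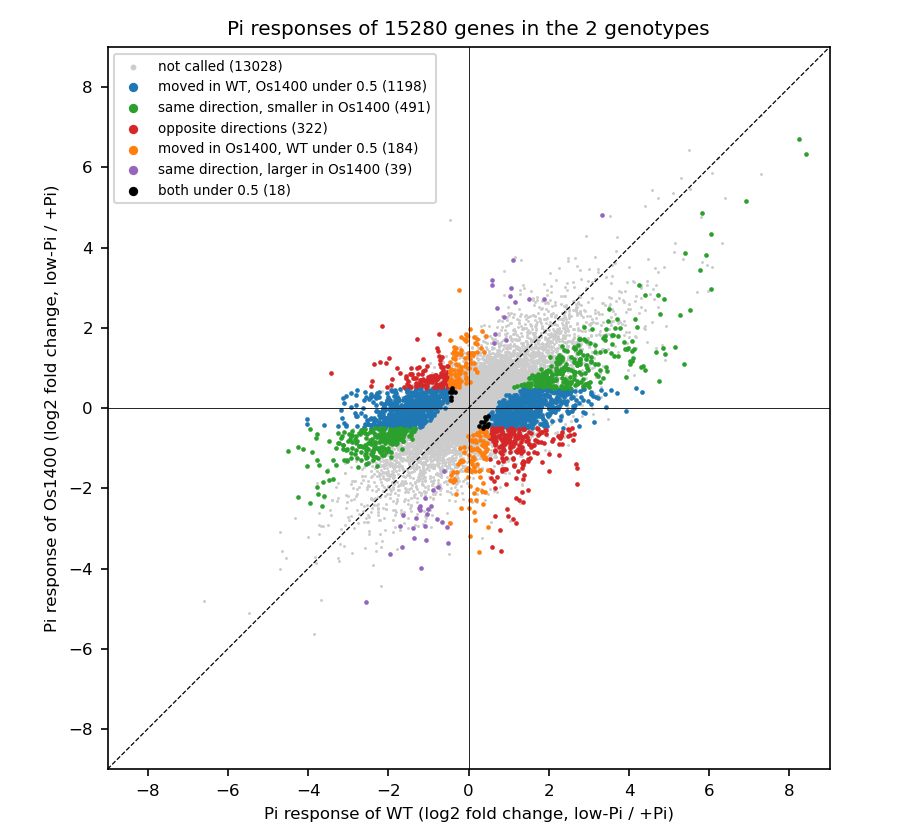
Pi response of each of 15280 genes in WT (x axis) against Os1400 (y axis), as the fitted log2 fold change of low-Pi over +Pi. Each point is a gene, colored points are the 2252 called genes by class, gray points are the 13028 genes not called, and the dashed line marks equal responses; most colored points lie near the horizontal axis, where WT moved and Os1400 stayed under 0.5.

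The gene with the largest opposite movement among those chosen by p was a sugar nucleotide enzyme. Os09g0553200 (chromosome 9, 21917324 to 21922399, plus strand), annotated as UDP-GLUCOSE PYROPHOSPHORYLASE 1, encodes the enzyme that makes UDP-glucose for cell walls and sucrose. Its level was 46.2, 36.2, and 43.9 CPM in WT +Pi, 7.42, 9.16, and 11.5 CPM in WT low-Pi, 43.4, 37.3, and 29.1 CPM in Os1400 +Pi, and 158, 124, and 170.2 CPM in Os1400 low-Pi. The 3 WT low-Pi libraries were the lowest and the 3 Os1400 low-Pi libraries the highest of all 12, while the +Pi groups overlapped. At low-Pi it fell by 2.17 in WT and rose by 2.04 in Os1400 on the log2 scale (difference 4.21 ± 0.32 (SE), adjusted p = 0.00011). Os03g0712700 (chromosome 3, 28813619 to 28820086, plus strand) carries a phosphoglucomutase domain, which belongs to enzymes that interconvert glucose phosphates upstream of UDP-glucose, although its name column reads fructose-6-phosphate 1-phosphotransferase. Its level was 67.4, 44.1, and 63.6 CPM in WT +Pi, 22.7, 30.1, and 19.5 CPM in WT low-Pi, 61.3, 47.1, and 45.9 CPM in Os1400 +Pi, and 160.2, 141, and 205 CPM in Os1400 low-Pi. Again, both +Pi groups overlapped and the low-Pi groups lay on either side of them. It fell by 1.28 in WT and rose by 1.72 in Os1400 (difference 2.99 ± 0.33 (SE), adjusted p = 0.00052). Os04g0586200 (chromosome 4, 29624421 to 29625055, minus strand), with a zinc finger of the FCS type, followed the same order, with 15.2, 12.4, and 13.4 CPM in WT low-Pi, 63.2, 63.6, and 72.1 CPM in Os1400 low-Pi, and 35.1 to 39.3 CPM in the 6 +Pi libraries (difference 2.26 ± 0.24 (SE), adjusted p = 0.00049).

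Among the genes chosen by p that moved the other way were an enzyme of polyamine synthesis and a histone. Os06g0131300 (chromosome 6, 1674358 to 1677406, minus strand), annotated as the enzyme that starts polyamine synthesis from arginine, stood at 367, 352, and 359 CPM in WT +Pi, 802, 483, and 625 CPM in WT low-Pi, 361, 334, and 352 CPM in Os1400 +Pi, and 168, 155, and 150.1 CPM in Os1400 low-Pi. It rose by 0.83 in WT and fell by 1.15 in Os1400, and the low-Pi groups did not overlap with each other or with either +Pi group (difference -1.97 ± 0.24 (SE), adjusted p = 0.00067). Os04g0450800 (chromosome 4, 22461303 to 22464042, plus strand) encodes histone H3.2A, a core protein of nucleosomes, and stood at 124, 115, and 123 CPM in WT +Pi, 239, 209, and 263 CPM in WT low-Pi, 81.6, 75.2, and 83.0 CPM in Os1400 +Pi, and 50.05, 48.8, and 44.6 CPM in Os1400 low-Pi. Here the 2 +Pi groups were also apart, with every Os1400 library below every WT library (difference -1.72 ± 0.20 (SE), adjusted p = 0.00057). Os01g0104900 (chromosome 1, 270179 to 275084, minus strand), a member of the transferase family that includes plant acyltransferases, rose by 1.11 in WT and fell by 0.54 in Os1400, with 735 to 1040 CPM in WT low-Pi and 228 to 276 CPM in Os1400 low-Pi (difference -1.66 ± 0.21 (SE), adjusted p = 0.00094).

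**Figure D2:**
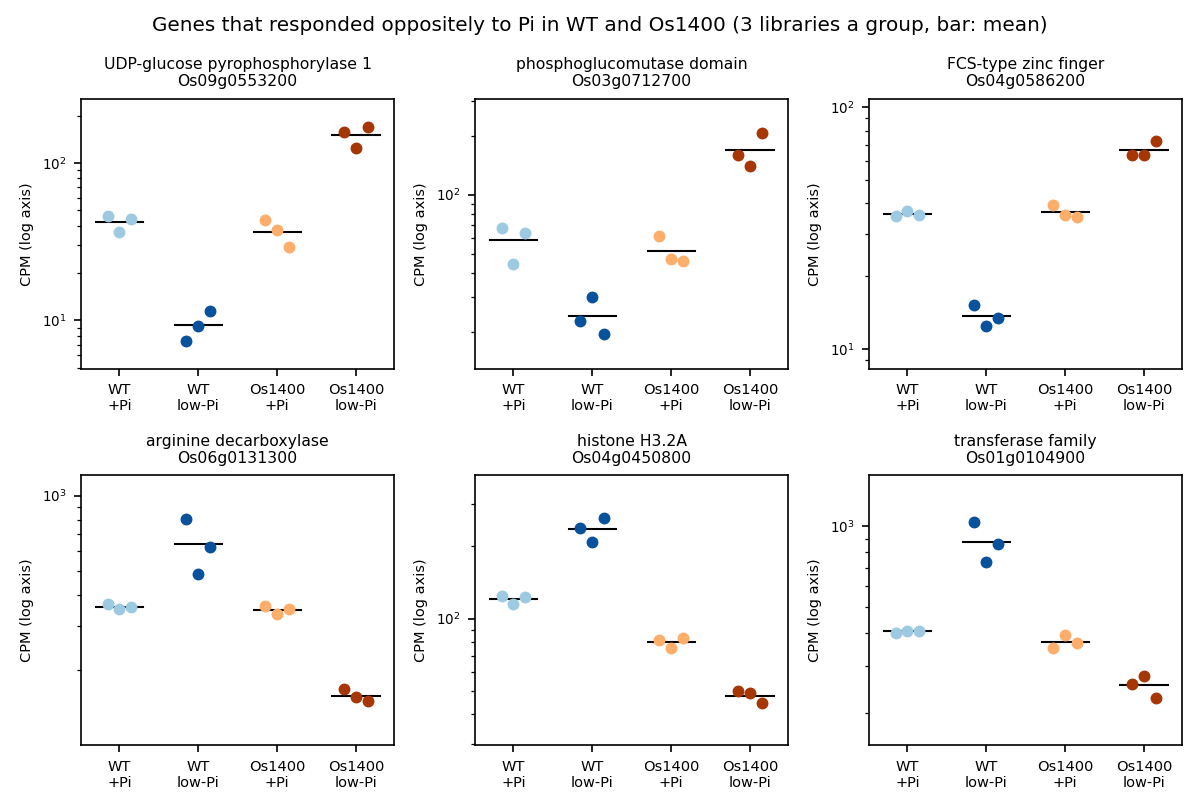
Levels of the 6 genes of opposite response in every library (CPM, log axis), by group; points are libraries and bars are means of 3. UDP-glucose pyrophosphorylase 1 reached 124 to 170 CPM in Os1400 low-Pi against 7.42 to 11.5 CPM in WT low-Pi, and arginine decarboxylase reached 150 to 168 CPM against 483 to 802 CPM.

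Genes that moved in WT and stayed near their +Pi level in Os1400 included genes of auxin synthesis, splicing, and chromatin. Os01g0169800 (FISH BONE, chromosome 1, 3577473 to 3581859, minus strand) encodes a tryptophan aminotransferase of auxin synthesis. It stood at 157, 154, and 159.8 CPM in WT +Pi, 22.5, 24.98, and 32.3 CPM in WT low-Pi, 125, 108, and 170 CPM in Os1400 +Pi, and 162, 159, and 166 CPM in Os1400 low-Pi. The 3 WT low-Pi libraries were below all 9 others, and Os1400 had a fitted response of 0.27 that did not pass the test (difference 2.83 ± 0.27 (SE), adjusted p = 0.00034). Os11g0636900 (U2AF65A), a splicing factor that recognizes the end of introns, stood at 102, 117, and 100.2 CPM in WT +Pi, 14.9, 17.3, and 19.2 CPM in WT low-Pi, 89.7, 99.2, and 87.1 CPM in Os1400 +Pi, and 88.4, 104, and 85.3 CPM in Os1400 low-Pi (difference 2.64 ± 0.23 (SE), adjusted p = 0.00017). Os01g0547133, with a domain of unknown function, fell by 3.61 in WT, to 5.98, 7.60, and 5.63 CPM, and was at 45.6, 47.5, and 47.3 CPM in Os1400 low-Pi (difference 3.18 ± 0.28 (SE), adjusted p = 0.00017). In all of these, WT low-Pi formed the low group.

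In the opposite direction, WT low-Pi formed the high group. The histone gene Os03g0390600 (H3, chromosome 3, 15645609 to 15648150, plus strand) stood at 289.7, 276, and 300.2 CPM in WT +Pi, 1059, 832, and 1056 CPM in WT low-Pi, 195, 181, and 207 CPM in Os1400 +Pi, and 178, 172, and 162 CPM in Os1400 low-Pi (difference -1.95 ± 0.20 (SE), adjusted p = 0.00045). As for H3.2A, the Os1400 +Pi libraries were below those of WT +Pi. Os03g0606200, a small subunit of mitochondrial ATP synthase, rose by 2.30 in WT to 2517, 2059, and 2267 CPM and reached 555, 579, and 474 CPM in Os1400 low-Pi, from 388 to 477 CPM in the 6 +Pi libraries (difference -1.91 ± 0.20 (SE), adjusted p = 0.00049). Os04g0676700, with a Myb-like DNA-binding domain, rose by 2.46 in WT to 168, 100.2, and 171 CPM and was at 26.2, 30.9, and 27.7 CPM in Os1400 low-Pi (difference -2.54 ± 0.29 (SE), adjusted p = 0.00057).

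Among genes that responded in the same direction but less in Os1400, the smallest p belonged to a co-chaperone. Os03g0648400 (chromosome 3, 25127262 to 25130981, plus strand), a DnaJ domain protein that assists HSP70, stood at 370.1, 270.1, and 330.1 CPM in WT +Pi, 19.8, 19.5, and 16.5 CPM in WT low-Pi, 357, 326, and 304 CPM in Os1400 +Pi, and 144, 146, and 193 CPM in Os1400 low-Pi. It fell by 4.12 in WT and fell by 1.03 in Os1400, and neither low-Pi group overlapped with any other group (difference 3.09 ± 0.25 (SE), adjusted p = 0.00011). Os06g0558700, a poly(A) polymerase domain protein of messenger RNA processing, fell by 2.58 and fell by 0.62 in the 2 genotypes, and Os03g0352400, a nucleolar GTPase named for ribosome assembly, fell by 2.77 and fell by 0.82. The differences of these 2 genes were 1.96 ± 0.21 and 1.96 ± 0.22 (SE; adjusted p = 0.00049 and 0.00057). Of the genes that rose less in Os1400, histone gene Os01g0839500 (H2B.11) went from 96.6, 121, and 92.7 CPM to 1310, 887, and 1076 CPM in WT and from 85.6, 92.7, and 77.5 CPM to 228, 284, and 169 CPM in Os1400 (difference -1.98 ± 0.29 (SE), adjusted p = 0.0018). A RING finger gene, Os02g0832150, went from 5.04 to 7.21 CPM at +Pi in WT to 101, 73.7, and 144 CPM at low-Pi, against 19.7, 19.6, and 14.2 CPM in Os1400 low-Pi (difference -2.65 ± 0.38 (SE), adjusted p = 0.0014). Os11g0586900 (ADP-RIBOSYLATION FACTOR C1, a small GTPase of the family that acts in vesicle traffic) rose by 2.11 in WT and rose by 0.55 in Os1400 (difference -1.56 ± 0.22 (SE), adjusted p = 0.0014).

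Few of the called genes responded in Os1400 alone or more strongly there. Os05g0543400 (farnesyl diphosphate synthase 2), which makes a precursor of sterols and other isoprenoids, stood at 169, 158, and 142 CPM in WT +Pi, 112, 152, and 117 CPM in WT low-Pi, 151, 137, and 139 CPM in Os1400 +Pi, and 354, 411, and 334 CPM in Os1400 low-Pi. It rose by 1.36 in Os1400, where the low-Pi libraries were the highest of the 12, and WT had a fitted response of -0.30 that did not pass the test (difference 1.66 ± 0.22 (SE), adjusted p = 0.0011). The stress-related zinc finger gene Os04g0110600 rose by 1.76 in Os1400 (difference 1.94, adjusted p = 0.0017), and Os01g0746700 (MAN2), named as a mannan hydrolase of the wall, rose by 1.38 (difference 1.78, adjusted p = 0.0038). Os04g0679400, with a domain of aluminium-induced proteins, was at 34.3, 28.1, and 33.8 CPM in Os1400 low-Pi and at 131 to 343 CPM in the 9 other libraries, a fall of 2.49 in Os1400 (difference -2.50 ± 0.38 (SE), adjusted p = 0.0021). Os11g0112000 (Hypoxia-Induced Gene Domain Protein 3) fell by 2.30 in Os1400 (difference -2.48, adjusted p = 0.0021), and Os01g0858900 (STLP1, of the sialyltransferase family) fell by 1.52 (difference -1.52, adjusted p = 0.0029). For these 6 genes the WT responses, between -0.40 and 0.18, did not pass the test. Among genes with a larger response in Os1400, the aquaporin gene Os04g0521100 (PIP2;3), which encodes a water channel of the plasma membrane, went from 1040, 788, and 1071 CPM to 262, 207, and 447 CPM in WT and from 1114, 1156, and 992 CPM to 131, 77.1, and 85.6 CPM in Os1400 (difference -1.81 ± 0.39 (SE), adjusted p = 0.01). Os08g0207500 (ZINC TRANSPORTER 4) fell by 1.40 in WT and fell by 2.98 in Os1400 (difference -1.59, adjusted p = 0.0042), and the histone deacetylase gene Os02g0215200 fell by 2.83 in Os1400 (difference -2.17, adjusted p = 0.0073). Larger rises in Os1400 were measured for Os05g0482700, a phosphoglycerate mutase of glycolysis by its domain (rose by 0.64 in WT and rose by 1.63 in Os1400, difference 0.99, adjusted p = 0.012), for Os08g0156600, a Major Facilitator Superfamily carrier (rose by 1.02 and rose by 2.79, difference 1.77, adjusted p = 0.014), and for Os03g0636700, with a calmodulin-binding motif (difference 2.48, adjusted p = 0.013).

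The called SPX, phosphate transporter, and Pi signaling genes responded less in Os1400 than in WT, except for a carrier of the mitochondrial type. Of 9 SPX domain genes tested (14 in both tables), 2 were called (22.2%, against 14.7% of all genes), both with a smaller rise. Os03g0406100 (SPX5, chromosome 3, 16645244 to 16646434, plus strand) stood at 5.74, 3.14, and 5.17 CPM in WT +Pi, 1687, 912, and 2199 CPM in WT low-Pi, 6.06, 3.73, and 4.13 CPM in Os1400 +Pi, and 420.5, 328, and 377 CPM in Os1400 low-Pi. Both genotypes raised it steeply, by 8.41 in WT and by 6.34 in Os1400, and the low-Pi groups did not overlap (difference -2.08 ± 0.44 (SE), adjusted p = 0.0099). Os06g0603600, a further SPX gene, stood at 19.5, 20.6, and 26.9 CPM in WT +Pi, 938, 704, and 1160 CPM in WT low-Pi, 22.3, 12.6, and 15.2 CPM in Os1400 +Pi, and 266, 231, and 227 CPM in Os1400 low-Pi (difference -1.53 ± 0.33 (SE), adjusted p = 0.011). The SPX genes not called had differences between -0.85 and 1.25. They included Os03g0827500 (SPX4), a restrainer of PHR2 in rice, with fitted responses of 0.23 in WT and 0.02 in Os1400, and the carriers of the vacuole type SPX-MFS2 (Os02g0678200, -0.66 and 0.59, adjusted p of the difference 0.12) and SPX-MFS3 (Os06g0129400, -1.40 and -0.75, adjusted p 0.073). PHOSPHATE TRANSPORTER 1;2 (Os02g0809800), an exporter that loads Pi into the xylem in rice, stood at 519 to 858 CPM in all 12 libraries (difference -0.44, adjusted p = 0.17). For Os01g0110100 (PHOSPHATE TRANSPORTER 1;1) and Os01g0110050, its antisense transcript, whether the counting used strand is not given in the sources used here, so their reads cannot be told apart. The differences of these 2 genes and of Os06g0493600 (PHOSPHATE TRANSPORTER 1;3) were -0.85, 0.27, and 0.10, none called.

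Of 14 phosphate transporter genes tested (28 in both tables), 8 rose in WT, 6 rose in Os1400, and none fell in either. In each direction 1 was called (14.3% in all, near the 14.7% of all genes). Os08g0564000 (PHOSPHATE TRANSPORTER 6, chromosome 8, 28244202 to 28246028, plus strand), an uptake carrier of rice roots, stood at 3.17, 2.62, and 5.08 CPM in WT +Pi, 1240, 991, and 1045 CPM in WT low-Pi, 6.20, 6.87, and 2.69 CPM in Os1400 +Pi, and 669, 515, and 449.6 CPM in Os1400 low-Pi. It rose by 8.24 in WT and rose by 6.70 in Os1400 (difference -1.54 ± 0.45 (SE), adjusted p = 0.038). Its call was lost without Os1400 +Pi replicates 1 or 2, Os1400 low-Pi replicates 1, 2 or 3, WT +Pi replicates 1 or 2, or WT low-Pi replicate 1 (difference -1.72 to -1.30). Os06g0210500 (PHOSPHATE TRANSPORTER 18), which has the domain of mitochondrial carriers, was at 132, 137, and 127 CPM in Os1400 low-Pi and at 65.6 to 102 CPM in the other 9 libraries (difference 0.70, adjusted p = 0.035). This call was lost without Os1400 +Pi replicates 1, 2 or 3, Os1400 low-Pi replicates 1, 2 or 3, or WT +Pi replicates 1, 2 or 3 (difference 0.66 to 0.74). The widest spread was in WT low-Pi. Os10g0444700 (PHOSPHATE TRANSPORTER 8) was at 221, 129.6, and 893 CPM in WT low-Pi and at 135, 44.8, and 143 CPM in Os1400 low-Pi, Os03g0150800 (PHOSPHATE TRANSPORTER 2) at 24.7, 39.6, and 156 CPM and 15.5, 4.29, and 14.7 CPM, and Os04g0186400 (PHOSPHATE TRANSPORTER 4) at 16.8, 6.11, and 267 CPM and 9.61, 1.12, and 19.0 CPM. In all of these, WT low-Pi replicate 3 was the highest library, and the differences of -2.33, -2.66, and -3.69 did not pass the test (adjusted p = 0.073, 0.071, and 0.13). The mitochondrial carrier Os02g0767500 (PHOSPHATE TRANSPORTER 15) rose alike, by 1.35 in WT and 1.13 in Os1400 (difference -0.22, adjusted p = 0.55). The other 4 transporters, Os03g0150600, Os03g0263400, Os11g0186800, and the traffic facilitator Os07g0187700 (PHF1), which helps transporters leave the endoplasmic reticulum, had differences of -0.93, 1.04, -0.24, and 0.59, none called.

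Of 4 regulators of Pi signaling tested, PHF1 among them, 2 were called (50%, against 14.7% of all genes). Both fell at low-Pi and fell less in Os1400. Os03g0329900 (PHOSPHATE STARVATION RESPONSE 1, PHR1, chromosome 3, 12126320 to 12131242, plus strand) stood at 71.7, 58.0, and 63.2 CPM in WT +Pi, 12.4, 8.65, and 14.9 CPM in WT low-Pi, 67.7, 60.3, and 72.5 CPM in Os1400 +Pi, and 35.1, 43.2, and 37.5 CPM in Os1400 low-Pi. It fell by 2.42 in WT and fell by 0.79 in Os1400 (difference 1.63 ± 0.30 (SE), adjusted p = 0.0051), and the 3 groups of WT low-Pi, Os1400 low-Pi, and +Pi did not overlap. Os05g0557700 (LTN1, chromosome 5, 27740218 to 27749525, minus strand) stood at 731, 632, and 716 CPM in WT +Pi, 20.8, 82.3, and 49.5 CPM in WT low-Pi, 669, 620.1, and 649 CPM in Os1400 +Pi, and 179, 146, and 173 CPM in Os1400 low-Pi. It fell by 3.77 in WT and fell by 1.96 in Os1400 (difference 1.80 ± 0.48 (SE), adjusted p = 0.025). That call was lost without Os1400 +Pi replicates 1, 2 or 3, Os1400 low-Pi replicates 1 or 3, or WT +Pi replicates 1 or 3 (difference 1.75 to 1.83), and with the gene-length correction described below its adjusted p was 0.0504. Os07g0438800 (PHR2) was at 20.9, 54.1, and 59.0 CPM in WT low-Pi and 55.4, 64.2, and 55.8 CPM in Os1400 low-Pi, and its difference was not called (difference 0.33, adjusted p = 0.62).

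Genes with a metallophosphatase domain, protein phosphatases among them, and genes of phospholipid and galactolipid enzymes were called in both directions. Of 36 metallophosphatases tested, 4 were called more positive and 3 more negative in Os1400 (19.4%, against 14.7% of all genes). Os12g0637100 (PURPLE ACID PHOSPHATASE 10C), a secreted phosphatase, stood at 34.8, 35.0, and 40.6 CPM in WT +Pi, 1260, 509.5, and 5460 CPM in WT low-Pi, 36.0, 46.4, and 35.3 CPM in Os1400 +Pi, and 327, 185, and 416 CPM in Os1400 low-Pi. Both genotypes raised it, and the low-Pi groups did not overlap (difference -3.06 ± 0.87 (SE), adjusted p = 0.034). This call was lost without Os1400 +Pi replicates 1, 2 or 3, Os1400 low-Pi replicates 1, 2 or 3, or WT +Pi replicates 1, 2 or 3 (difference -3.33 to -2.79). The more positive members were not purple acid phosphatases by name. They included 2 protein phosphatases with Kelch repeats, a class known from brassinosteroid signaling, Os05g0144400 (fell by 2.62 in WT, difference 2.14, adjusted p = 0.0028) and Os12g0617900 (fell by 1.70 in WT, difference 1.35, adjusted p = 0.0038). Os03g0805300, named as a phosphatase 2A isoform, rose by 1.21 in WT (difference -1.07, adjusted p = 0.0082). Of 16 enzymes of phospholipids and galactolipids, 2 were called more positive and 1 more negative (18.8%). Phospholipase D genes Os10g0524400 (beta 1) and Os09g0543100 (delta 1) fell in WT by 1.39 and 0.84 and were called more positive in Os1400 (adjusted p = 0.017 and 0.025). Os01g0102000 (NON-SPECIFIC PHOSPHOLIPASE C5), of a group that breaks down phospholipids in Pi-starved plants, rose by 2.42 in WT and rose by 1.01 in Os1400 (difference -1.41, adjusted p = 0.037). The call of Os09g0543100 was lost without Os1400 +Pi replicates 1, 2 or 3, Os1400 low-Pi replicates 1 or 2, or WT +Pi replicates 1, 2 or 3 (difference 1.01 to 1.10). That of Os01g0102000 was lost without Os1400 +Pi replicates 1, 2 or 3, Os1400 low-Pi replicates 1, 2 or 3, or WT +Pi replicates 1 or 2 (difference -1.46 to -1.27). With the gene-length correction described below, the 2 phospholipase D genes were at adjusted p = 0.051 and 0.065. Of 7 glycerophosphodiester phosphodiesterases, which release glycerol phosphate from lipids, 4 rose in each genotype and 1 was called (14.3%), with a smaller rise in Os1400.

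**Figure D3:**
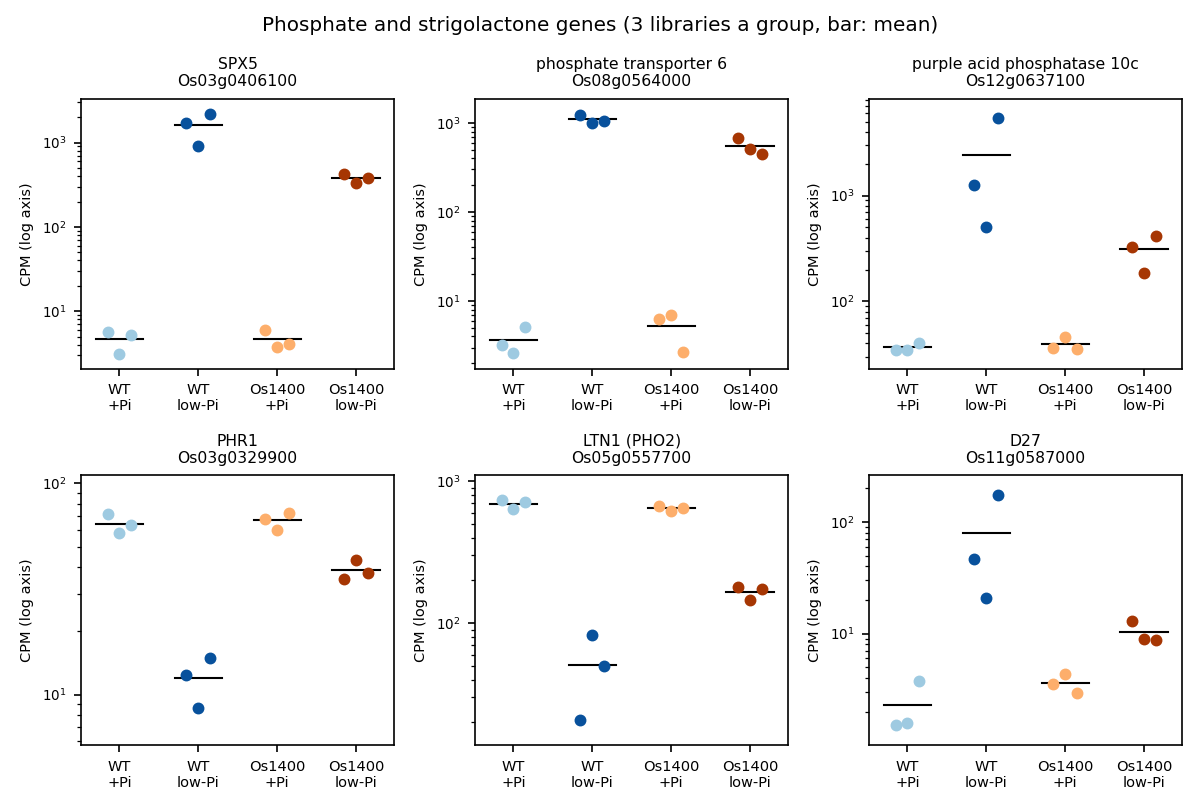
Levels of 6 phosphate and SL genes in every library (CPM, log axis), by group; points are libraries and bars are means of 3. SPX5, PHOSPHATE TRANSPORTER 6, and PURPLE ACID PHOSPHATASE 10C were high in both low-Pi groups and highest in WT low-Pi, and PHR1 and LTN1 were low in both and lowest in WT low-Pi.

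SL genes responded to Pi in both genotypes, and 1 of 8 tested (13 in both tables) was called (12.5%, against 14.7% of all genes). Os11g0587000 (D27, chromosome 11, 22221628 to 22231042, plus strand), the isomerase that starts SL synthesis from carotene, stood at 1.51, 1.59, and 3.74 CPM in WT +Pi, 46.6, 20.7, and 174 CPM in WT low-Pi, 3.58, 4.33, and 2.92 CPM in Os1400 +Pi, and 13.1, 9.02, and 8.77 CPM in Os1400 low-Pi. It rose by 5.14 in WT. In Os1400 the gene had a fitted response of 1.51 that did not pass the test, whose spread was estimated from all 12 libraries. Even so, the Os1400 low-Pi libraries were all above the Os1400 +Pi libraries. The difference between the genotypes was called (difference -3.63 ± 0.88 (SE), adjusted p = 0.018). The call was lost without WT +Pi replicate 1 (difference -3.40), and the description of this gene in the tables is that of a PPR repeat protein. Os01g0700900 (Os900), the MAX1 homolog that acts before OsMAX1-1400, stood at 1.31, 2.46, and 0.449 CPM in WT +Pi, 60.0, 44.3, and 181 CPM in WT low-Pi, 0.577, 1.31, and 1.01 CPM in Os1400 +Pi, and 16.9, 7.46, and 9.04 CPM in Os1400 low-Pi. It rose by 6.06 in WT and rose by 3.51 in Os1400, and although the low-Pi groups did not overlap, the difference did not pass the test (difference -2.55 ± 0.88 (SE), adjusted p = 0.068). Os04g0550600 (D17), a carotenoid cleavage enzyme of SL synthesis, rose by 2.35 in WT and rose by 2.07 in Os1400 (difference -0.28, adjusted p = 0.83). Os03g0408600 (NSP1), a GRAS regulator, rose by 3.64 and rose by 3.62 (difference -0.03, adjusted p = 0.99). The SL receptor gene Os03g0203200 (D14) fell by 1.59 and fell by 2.26, and the F-box gene Os06g0154200 (D3) fell by 1.35 and fell by 1.86, with differences of -0.68 and -0.51 (adjusted p = 0.42 and 0.2). With the gene-length correction, D3 was called at adjusted p = 0.038. The repressor gene Os11g0104300 (D53) and Os08g0509600 (the SBP factor WEALTHY FARMER'S PANICLE) had differences of 0.12 and 0.93 (adjusted p = 0.76 and 0.24).

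Called genes of the auxin pathway were for the larger part more positive in Os1400. AUX/IAA proteins repress auxin-responsive genes until auxin marks them for degradation. Of 20 AUX/IAA genes tested, 7 were called more positive and 1 more negative in Os1400, 40% in all against 14.7% of all genes. Their median difference was 0.25 against -0.04 over all genes. Os12g0601400 (IAA31, chromosome 12, 25325555 to 25327111, plus strand) stood at 111, 167, and 118 CPM in WT +Pi, 44.5, 27.4, and 22.6 CPM in WT low-Pi, 96.0, 102, and 132 CPM in Os1400 +Pi, and 216, 221, and 277 CPM in Os1400 low-Pi. It fell by 2.07 in WT and rose by 1.11 in Os1400, and the low-Pi groups lay on either side of the +Pi libraries (difference 3.18 ± 0.36 (SE), adjusted p = 0.00057). Os03g0633800 (IAA12) fell by 1.503 in WT and rose by 0.67 in Os1400 (difference 2.17 ± 0.31 (SE), adjusted p = 0.0014). The single more negative member, Os01g0231000 (IAA3), rose by 1.05 in WT, and Os1400 had a fitted response of 0.12 that did not pass the test (difference -0.93 ± 0.22 (SE), adjusted p = 0.015). The counts were 5 to 9 more positive and 1 more negative over the 12 fits that each left out 1 library. Of 13 auxin response factors, the transcription factors that AUX/IAA proteins repress, 2 were more positive and 1 more negative (23.1% called). Os01g0236300 (ARF16) stood at 161, 158, and 136 CPM in WT +Pi, 54.3, 48.8, and 57.0 CPM in WT low-Pi, 149.8, 165, and 162 CPM in Os1400 +Pi, and 174, 145, and 173 CPM in Os1400 low-Pi (difference 1.56 ± 0.20 (SE), adjusted p = 0.00099). Os05g0563400 (ARF15) fell by 2.02 in WT, and Os1400 had a fitted response of 0.12 that did not pass the test (difference 2.14 ± 0.30 (SE), adjusted p = 0.0014). Os01g0927600 (ARF2) rose by 0.76 in WT (difference -0.76, adjusted p = 0.035), a call that was lost without Os1400 +Pi replicates 1, 2 or 3, Os1400 low-Pi replicates 1, 2 or 3, or WT +Pi replicates 1, 2 or 3 (difference -0.79 to -0.71). Of 7 PIN and PIN-like auxin carriers 1 was called in each direction (28.6% in all). Of 10 SAUR genes, 1 was called in each direction (20% in all), with a median difference of -0.62. None of 3 GH3 genes tested (12 in both tables), which conjugate auxin, was called. Their differences were all negative, from -2.525 to -0.37 with a median of -1.53, and DESeq2 called 1 of them more negative.

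Genes of dividing cells differed by family. Core histones package DNA, kinesins move along microtubules, and both are needed in quantity when cells divide. Of 27 core histone genes found by their domain, 23 rose in WT and 18 in Os1400, none fell in either, and 9 were called more negative in Os1400 and 1 more positive (37% called). Over the leave-one-out fits, 4 to 12 were more negative. The histone genes Os03g0390600 (H3) and Os04g0450800 (H3.2A), described above, have no domain given and are not among the 27. Os04g0450800 did fall in Os1400, by 0.74, and passed the test for a Pi response there (adjusted p = 0.0026). Os03g0279000 (H2B1) stood at 118, 114, and 135 CPM in WT +Pi, 427, 342, and 558 CPM in WT low-Pi, 110.2, 118, and 116 CPM in Os1400 +Pi, and 172, 164, and 156 CPM in Os1400 low-Pi (difference -1.34 ± 0.24 (SE), adjusted p = 0.0048). The exception was the H2A gene Os03g0279200, which rose by 1.11 in Os1400, while WT had a fitted response of -0.07 that did not pass the test (difference 1.19, adjusted p = 0.022). That call was lost without Os1400 +Pi replicates 1 or 3, Os1400 low-Pi replicates 1 or 2, or WT +Pi replicate 2 (difference 0.98 to 1.17). Kinesins showed the reverse. Of 26 kinesins, 9 were more positive and 1 more negative in Os1400 (38.5% called, median difference 1.03), with 5 to 13 more positive in the leave-one-out fits. Os05g0154700 (SMALL AND ROUND SEED 3) stood at 115, 107, and 94.0 CPM in WT +Pi, 37.3, 52.8, and 37.8 CPM in WT low-Pi, 91.0, 90.5, and 111 CPM in Os1400 +Pi, and 138, 129.5, and 163 CPM in Os1400 low-Pi (difference 1.86 ± 0.26 (SE), adjusted p = 0.0013). Os05g0459400 (KIN10C) fell by 1.90 in WT and was at 16.6, 18.7, and 16.8 CPM in Os1400 low-Pi against 4.39, 3.17, and 3.00 CPM in WT low-Pi (difference 2.63, adjusted p = 0.0022). The more negative kinesin, Os08g0547500, rose by 2.13 in WT (difference -1.69, adjusted p = 0.017). Of 15 tubulins, the subunits of microtubules, 1 was more positive and 3 more negative (26.7% called). BETA-TUBULIN 3 (Os06g0671900) fell by 1.02 in WT and rose by 0.70 in Os1400 (difference 1.72, adjusted p = 0.0013). BETA-TUBULIN 2 (Os03g0105600) rose by 2.91 in WT and in Os1400 had a fitted response of 0.59 that did not pass the test (difference -2.32, adjusted p = 0.0043). BETA-TUBULIN 6 (Os05g0413200) rose by 1.98 and rose by 0.95 (difference -1.03, adjusted p = 0.04, lost without Os1400 +Pi replicates 2 or 3, Os1400 low-Pi replicates 1, 2 or 3, or WT +Pi replicates 1, 2 or 3, at -1.13 to -0.88). None of the 6 MCM genes, which license DNA replication, was called, with differences between 0.42 and 1.13. Of 17 cyclins, 2 were more positive (11.8% called, below the 14.7% of all genes).

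Cell wall genes also split. Cellulose synthases spin the load-bearing polymer of the wall. Of 14 tested, 5 were more positive in Os1400 and none more negative (35.7% called, against 14.7% of all genes). The leave-one-out fits called 3 to 8 of them more positive. Os12g0555600 (NARROW LEAF AND DWARF 1), a cellulose synthase-like gene, stood at 51.6, 55.8, and 33.5 CPM in WT +Pi, 11.2, 19.97, and 8.94 CPM in WT low-Pi, 42.6, 51.2, and 54.5 CPM in Os1400 +Pi, and 60.5, 55.5, and 44.3 CPM in Os1400 low-Pi (difference 1.93 ± 0.42 (SE), adjusted p = 0.011). Os07g0208500 (CELLULOSE SYNTHASE A8) fell by 0.60 in WT and rose by 0.70 in Os1400 (difference 1.29, adjusted p = 0.013). Expansins, which loosen walls, had 2 called in each direction of 19 (21% in all). Os03g0132200 (EXLA1) rose by 1.23 in WT and fell by 1.56 in Os1400 (difference -2.79, adjusted p = 0.0027), and BETA-EXPANSIN 4 (Os10g0556100) rose by 0.96 in Os1400 alone (difference 1.22, adjusted p = 0.011). ALPHA-EXPANSIN 3 (Os05g0276500) and ALPHA-EXPANSIN 7 (Os03g0822000) had differences of -3.17 and 1.22. The first call was lost without Os1400 +Pi replicates 1 or 2 or WT +Pi replicates 1 or 2 (difference -3.23 to -2.86), and the second without Os1400 +Pi replicates 1, 2 or 3, Os1400 low-Pi replicates 1 or 3, or WT +Pi replicates 1 or 3 (difference 1.09 to 1.28). With the gene-length correction the second was at adjusted p = 0.055. Of 12 xyloglucan endotransglucosylases, which cut and rejoin wall polymers, 3 were more negative (25%). Os10g0577500 (XTH25) stood at 72.7, 58.7, and 82.7 CPM in WT +Pi, 208, 61.9, and 329.8 CPM in WT low-Pi, 94.1, 103, and 70.6 CPM in Os1400 +Pi, and 39.3, 22.9, and 45.7 CPM in Os1400 low-Pi, with WT low-Pi replicate 2 within the range of the +Pi libraries (difference -2.80 ± 0.64 (SE), adjusted p = 0.013). Os03g0854600 (XTH24) rose by 1.19 in WT (difference -1.02, adjusted p = 0.046), a call lost without Os1400 +Pi replicates 1, 2 or 3, Os1400 low-Pi replicates 1, 2 or 3, or WT +Pi replicates 1, 2 or 3 (difference -1.14 to -0.86). Dirigent proteins, which guide lignan and lignin coupling, had 5 of 20 more negative (25%) and none more positive. Os07g0107300 rose by 1.55 in WT and fell by 0.96 in Os1400 (difference -2.52, adjusted p = 0.0018), and Os10g0398100 fell by 1.52 in Os1400 (difference -2.47, adjusted p = 0.01).

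Defense-related regulators and proteins differed from list to list. WRKY factors regulate defense and stress genes. Of 33 tested (82 in both tables), 10 were more negative in Os1400 and 1 more positive (33.3% called, against 14.7% of all genes). Their median difference was -1.26. In WT 11 rose and 5 fell, and in Os1400 2 rose and 11 fell. Os07g0596900 (WRKY88) stood at 21.3, 20.4, and 18.3 CPM in WT +Pi, 76.3, 77.3, and 51.4 CPM in WT low-Pi, 18.0, 21.3, and 21.9 CPM in Os1400 +Pi, and 18.6, 20.8, and 19.3 CPM in Os1400 low-Pi (difference -1.84 ± 0.29 (SE), adjusted p = 0.0026). Os03g0321700 (WRKY55) rose by 2.61 in WT to 39.6, 11.1, and 35.7 CPM and was at 4.06, 2.59, and 5.01 CPM in Os1400 low-Pi (difference -3.41, adjusted p = 0.0052). The exception, Os01g0750100 (WRKY13), fell in both, by 3.04 in WT and 1.31 in Os1400 (difference 1.73, adjusted p = 0.043). Its call was lost without Os1400 +Pi replicates 1, 2 or 3, Os1400 low-Pi replicates 1, 2 or 3, WT +Pi replicates 1, 2 or 3, or WT low-Pi replicate 1 (difference 1.49 to 1.87). The leave-one-out fits called 6 to 14 WRKY genes more negative. Chitinases, which attack fungal walls, had 4 of 16 more negative (25%, with 2 to 6 genes in the leave-one-out fits). None was more positive, and the median difference was -1.18. Os10g0416500 (Chitinase 1) stood at 48.0, 98.2, and 47.1 CPM in WT +Pi, 226, 73.8, and 194 CPM in WT low-Pi, 54.6, 12.1, and 37.0 CPM in Os1400 +Pi, and 10.1, 3.32, and 7.02 CPM in Os1400 low-Pi. The spread was wide, and only the Os1400 low-Pi libraries lay apart from the rest (difference -3.70 ± 0.81 (SE), adjusted p = 0.011). Os08g0522500 rose by 1.18 in WT (difference -0.98, adjusted p = 0.012). Both lists were less one-sided with filterByExpr, where the median difference over all genes was 0.38. There 4 of 77 WRKY genes were more positive and 8 more negative (median -0.40). Of 32 chitinases, 3 were more positive and 5 more negative (median -0.45).

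Of 29 PR-1, PR-10, and thaumatin-like genes, 6 were more negative and 2 more positive (27.6% called, against 14.7% of all genes). The more negative count was 1 to 11 in the leave-one-out fits and 1 with the gene-length correction. Of the 8 called, 4 passed the 0.5 limit in WT only, 2 responded less in Os1400, and 2 more. Os04g0593400, of the PR-10 family, stood at 15.1, 19.7, and 16.8 CPM in WT +Pi, 195, 192, and 195 CPM in WT low-Pi, 14.4, 16.5, and 15.9 CPM in Os1400 +Pi, and 103, 74.0, and 82.0 CPM in Os1400 low-Pi (difference -1.02 ± 0.24 (SE), adjusted p = 0.015). With the gene-length correction its adjusted p was 0.16. The thaumatin gene Os12g0569300 fell by 1.16 in WT (difference 1.53, adjusted p = 0.0036). Lipoxygenases, which make precursors of jasmonate and other oxylipins, had 3 of 7 more negative, all with a smaller fitted rise in Os1400. Os03g0738600 (LIPOXYGENASE L2) stood at 175, 173, and 204 CPM in WT +Pi, 1812, 993, and 1197 CPM in WT low-Pi, 229, 314, and 169.6 CPM in Os1400 +Pi, and 406, 357, and 284 CPM in Os1400 low-Pi (difference -2.30 ± 0.36 (SE), adjusted p = 0.0025). Os03g0699700 (R9-LIPOXYGENASE 1) rose by 2.36 in WT and rose by 0.93 in Os1400 (difference -1.43, adjusted p = 0.032, lost without Os1400 +Pi replicates 1 or 2, Os1400 low-Pi replicates 2 or 3, or WT +Pi replicates 2 or 3, at -1.39 to -1.23). Of 78 genes with the peroxidase domain, 5 were more positive and 8 more negative (16.7% called). Os03g0368300 (peroxidase 43) rose by 4.17 in WT and was at 194, 96.5, and 438 CPM in WT low-Pi against 23.5, 14.9, and 23.6 CPM in Os1400 low-Pi (difference -3.67, adjusted p = 0.0049). Os06g0695500 (peroxidase 90) rose by 1.90 in WT (difference -2.22, adjusted p = 0.0014), while Os09g0471100 (peroxidase 122) and Os07g0694700 (L-ASCORBATE PEROXIDASE 2, which is no class III peroxidase) fell in WT by 1.84 and 0.57 and were more positive in Os1400 (adjusted p = 0.005 and 0.0052). Glutathione S-transferases, which detoxify reactive compounds, had 3 more positive and 5 more negative of 40 (20% called). With filterByExpr the counts were 10 more positive and 3 more negative of 75. Os10g0530900 (GSTU50) stood at 72.6, 26.1, and 62.1 CPM in WT low-Pi and 3.34, 3.29, and 5.81 CPM in Os1400 low-Pi, and the 6 +Pi libraries lay between 15.1 and 32.6 CPM (difference -3.42, adjusted p = 0.0029). Os10g0529400 (GSTU9) rose by 3.18 in WT (difference -2.90, adjusted p = 0.0034).

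Dehydrins and late embryogenesis abundant (LEA) proteins protect cells in drought, and 6 of 32 were more negative in Os1400 and 1 more positive (21.9% called). Os05g0584200 (LEA8) stood at 169, 132, and 178 CPM in WT +Pi, 465, 388, and 548 CPM in WT low-Pi, 158, 144, and 130.1 CPM in Os1400 +Pi, and 137, 132, and 139 CPM in Os1400 low-Pi (difference -1.64 ± 0.24 (SE), adjusted p = 0.0015). Os04g0685400 rose by 1.65 in WT (difference -1.35, adjusted p = 0.0048), and the exception, Os03g0843300 (LEA7), fell by 0.93 in WT (difference 1.303, adjusted p = 0.003). With filterByExpr, which tested 54 genes of this list, 5 were called in each direction. Resistance genes with an NB-ARC domain, the sensors of pathogen effectors, were called at 12.3%, below the 14.7% of all genes, with 10 of 81 more positive and none more negative. The counts were 14 and 4 with DESeq2, and 3 to 19 and 0 to 11 in the leave-one-out fits. Os12g0553200 was at 2.95, 4.74, and 11.4 CPM in WT low-Pi and at 32.9 to 54.2 CPM in the other 9 libraries (difference 2.99, adjusted p = 0.0039), and Os06g0125000 fell by 1.99 in WT and rose by 1.26 in Os1400 (difference 3.25, adjusted p = 0.0048). With filterByExpr, which tested 277 NB-ARC genes, 42 were more positive, and of 341 pentatricopeptide repeat genes of organelle RNA processing 79 were, against 2 of 65 under the filter used here. The added genes include those with zero counts in WT low-Pi libraries.

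Genes of protein synthesis and folding were called in both directions. Of 232 ribosomal protein genes, 122 rose and 15 fell in WT and 68 rose and 2 fell in Os1400. The difference was more negative for 31 and more positive for 14 (19.4% called, against 14.7% of all genes). This split became 21 and 19 with the gene-length correction, and 11 to 59 and 8 to 30 in the leave-one-out fits. Os03g0818400 (S12/S23 family) stood at 305, 289, and 271 CPM in WT +Pi, 1503, 1088, and 1055 CPM in WT low-Pi, 248, 242, and 245 CPM in Os1400 +Pi, and 283, 315, and 211 CPM in Os1400 low-Pi (difference -1.93 ± 0.25 (SE), adjusted p = 0.001). Os04g0346100 (S27 family) behaved in the same way (difference -1.91, adjusted p = 0.0014), whereas Os05g0445500 (acidic ribosomal protein) and Os07g0292800 (L24e family) fell in WT by 1.31 and 3.11 and were more positive in Os1400 (adjusted p = 0.00098 and 0.0014). Of 20 HSP70 and HSP90 genes, 4 were more positive and 3 more negative (35% called), with 3 to 6 and 0 to 5 in the leave-one-out fits. With filterByExpr, 8 of 28 were more positive and 1 more negative. Os11g0703900 (HSP70) stood at 4161, 3502, and 3333 CPM in WT +Pi, 953, 1077, and 1265 CPM in WT low-Pi, 2634, 2507, and 2357 CPM in Os1400 +Pi, and 2394, 2710, and 2323 CPM in Os1400 low-Pi (difference 1.73 ± 0.23 (SE), adjusted p = 0.00098). Os06g0716700 (HSP90) fell by 1.16 in WT, and Os1400 had a fitted response of 0.29 that did not pass the test (difference 1.44, adjusted p = 0.0039). Os01g0180800 and Os03g0218500, of the HSP70 family, rose in WT by 1.81 and 1.34 and were more negative in Os1400 (adjusted p = 0.018 and 0.032). The first call was lost without Os1400 +Pi replicate 3 or WT +Pi replicates 1 or 3 (difference -0.98 to -0.95), and the second without Os1400 +Pi replicates 1 or 3, Os1400 low-Pi replicates 1, 2 or 3, or WT +Pi replicates 1 or 2 (difference -1.45 to -1.20). Of 48 DnaJ genes, 6 were more positive and 4 more negative (20.8% called).

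Transporters of other nutrients and of water were called in both directions, at shares on either side of the 14.7% of all genes. Of 22 PTR family genes, which carry nitrate or peptides, 5 were more negative and 1 more positive (27.3% called, 4 to 9 more negative in the leave-one-out fits). Os08g0155400 (nitrate transporter 1.1A) stood at 51.6, 60.9, and 51.4 CPM in WT +Pi, 139.5, 119, and 238 CPM in WT low-Pi, 57.2, 54.0, and 63.6 CPM in Os1400 +Pi, and 48.8, 47.6, and 50.5 CPM in Os1400 low-Pi (difference -1.85 ± 0.32 (SE), adjusted p = 0.004). Os10g0579800 rose by 4.29 in WT from 0.957 to 2.86 CPM at +Pi to 27.8, 14.3, and 58.0 CPM (difference -3.28, adjusted p = 0.016). The exception, Os11g0235200 (SHORT PANICLE 1), fell by 1.80 in WT (difference 1.57, adjusted p = 0.046, lost without Os1400 +Pi replicates 1, 2 or 3, Os1400 low-Pi replicates 1, 2 or 3, or WT +Pi replicates 1, 2 or 3, at 1.49 to 1.64). With the gene-length correction the adjusted p of Os11g0235200 was 0.083. Of 21 aquaporins, 3 were more negative and 1 more positive (19.1%). Besides PIP2;3, Os01g0975900 (TIP1;2, a water channel of the vacuole) was at 103, 59.2, and 88.8 CPM in Os1400 low-Pi, below all other libraries, and at 418, 127, and 831 CPM in WT low-Pi (difference -2.87 ± 0.66 (SE), adjusted p = 0.014). Os07g0448100 (PIP2;4) fell by 1.94 in WT and fell by 1.08 in Os1400 (difference 0.86, adjusted p = 0.04, lost without Os1400 +Pi replicates 1, 2 or 3, Os1400 low-Pi replicates 1 or 3, WT +Pi replicates 1, 2 or 3, or WT low-Pi replicate 1, at 0.72 to 0.93). Of 23 ZIP, OPT, and NRAMP metal transporters 3 were more negative (13%), including ZINC TRANSPORTER 4 and Os05g0164800 (ZINC TRANSPORTER 6), which rose by 0.59 in WT and fell by 0.54 in Os1400 (difference -1.14, adjusted p = 0.01). Of 30 amino acid transporters, 2 were more negative and 1 more positive (10%). Os01g0908600 (proline transporter 1) went from 2.94 to 3.80 CPM at +Pi to 103, 59.8, and 111 CPM at low-Pi in WT and to 33.6, 27.8, and 25.6 CPM in Os1400 (difference -2.42, adjusted p = 0.0034). Os02g0722400 (amino acid permease 3) rose by 1.20 in WT and fell by 1.11 in Os1400 (difference -2.31, adjusted p = 0.0091). The more positive member, Os06g0228500 (amino acid transporter-like 12), rose by 1.46 in Os1400, and WT had a fitted response of -0.18 that did not pass the test (difference 1.63, adjusted p = 0.028). Its call was lost without Os1400 +Pi replicates 1 or 2, Os1400 low-Pi replicates 1, 2 or 3, or WT +Pi replicate 2 (difference 1.40 to 1.69).

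Glycolytic enzymes as a list had 3 more positive and 2 more negative of 35 (14.3% called, near the 14.7% of all genes). Cytosolic glyceraldehyde-3-phosphate dehydrogenase (Os08g0126300) stood at 856, 755, and 875 CPM in WT +Pi, 1713, 1328, and 1958 CPM in WT low-Pi, 899.6, 731, and 705 CPM in Os1400 +Pi, and 750.1, 654, and 622 CPM in Os1400 low-Pi (difference -1.21 ± 0.24 (SE), adjusted p = 0.0079). Os05g0524400 (phosphofructokinase 5), which uses ATP, rose by 0.95 in WT (difference -1.40, adjusted p = 0.015). Os08g0345700, a subunit of the phosphofructokinase that uses pyrophosphate in place of ATP, fell by 2.29 in WT and was at 79.2, 144, and 237 CPM in WT low-Pi against 377, 312, and 408 CPM in Os1400 low-Pi (difference 1.61, adjusted p = 0.023). This call was lost without Os1400 +Pi replicates 1, 2 or 3, Os1400 low-Pi replicates 1 or 3, or WT +Pi replicates 1 or 3 (difference 1.52 to 1.65). PHOSPHOGLUCOISOMERASE 1 (Os03g0776000) fell by 1.93 in WT and fell by 0.68 in Os1400 (difference 1.26, adjusted p = 0.02, lost without Os1400 +Pi replicate 3, at 1.21). Of 62 cytochrome P450 genes, 5 were more positive and 2 more negative (11.3% called, below the 14.7% of all genes). Os04g0101400 (P-450 93G1) went from 9.79 to 10.4 CPM at +Pi to 146, 75.7, and 269 CPM at low-Pi in WT and was at 23.9, 14.7, and 28.7 CPM in Os1400 low-Pi (difference -2.92, adjusted p = 0.0049). The brassinosteroid gene DWARF4 (Os03g0227700) fell by 2.56 in WT and fell by 0.98 in Os1400 (difference 1.58, adjusted p = 0.021). Its call was lost without Os1400 +Pi replicates 1 or 3, Os1400 low-Pi replicate 1, or WT +Pi replicate 1 (difference 1.43 to 1.58). CPD2 (Os12g0139300), of the same pathway, rose by 1.27 in Os1400 while WT had a fitted response of -0.67 that did not pass the test (difference 1.94, adjusted p = 0.014). Of 486 protein kinases, 41 were more positive and 29 more negative, 14.4% in all, close to the 14.7% of all genes. RECEPTOR-LIKE CYTOPLASMIC KINASE 301 (Os10g0442800) was at 147, 60.5, and 88.2 CPM in WT low-Pi, 11.96, 10.6, and 12.3 CPM in Os1400 low-Pi, and 17.4 to 22.7 CPM at +Pi (difference -3.04, adjusted p = 0.00094). NAC factors had 3 more positive and 4 more negative of 35 (20% called, against 14.7% of all genes). With filterByExpr, 6 of 69 NAC factors were more positive and 2 more negative. Os05g0563000 (NAC62) rose by 3.74 in WT and rose by 1.80 in Os1400 (difference -1.94, adjusted p = 0.013).

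**Figure D4:**
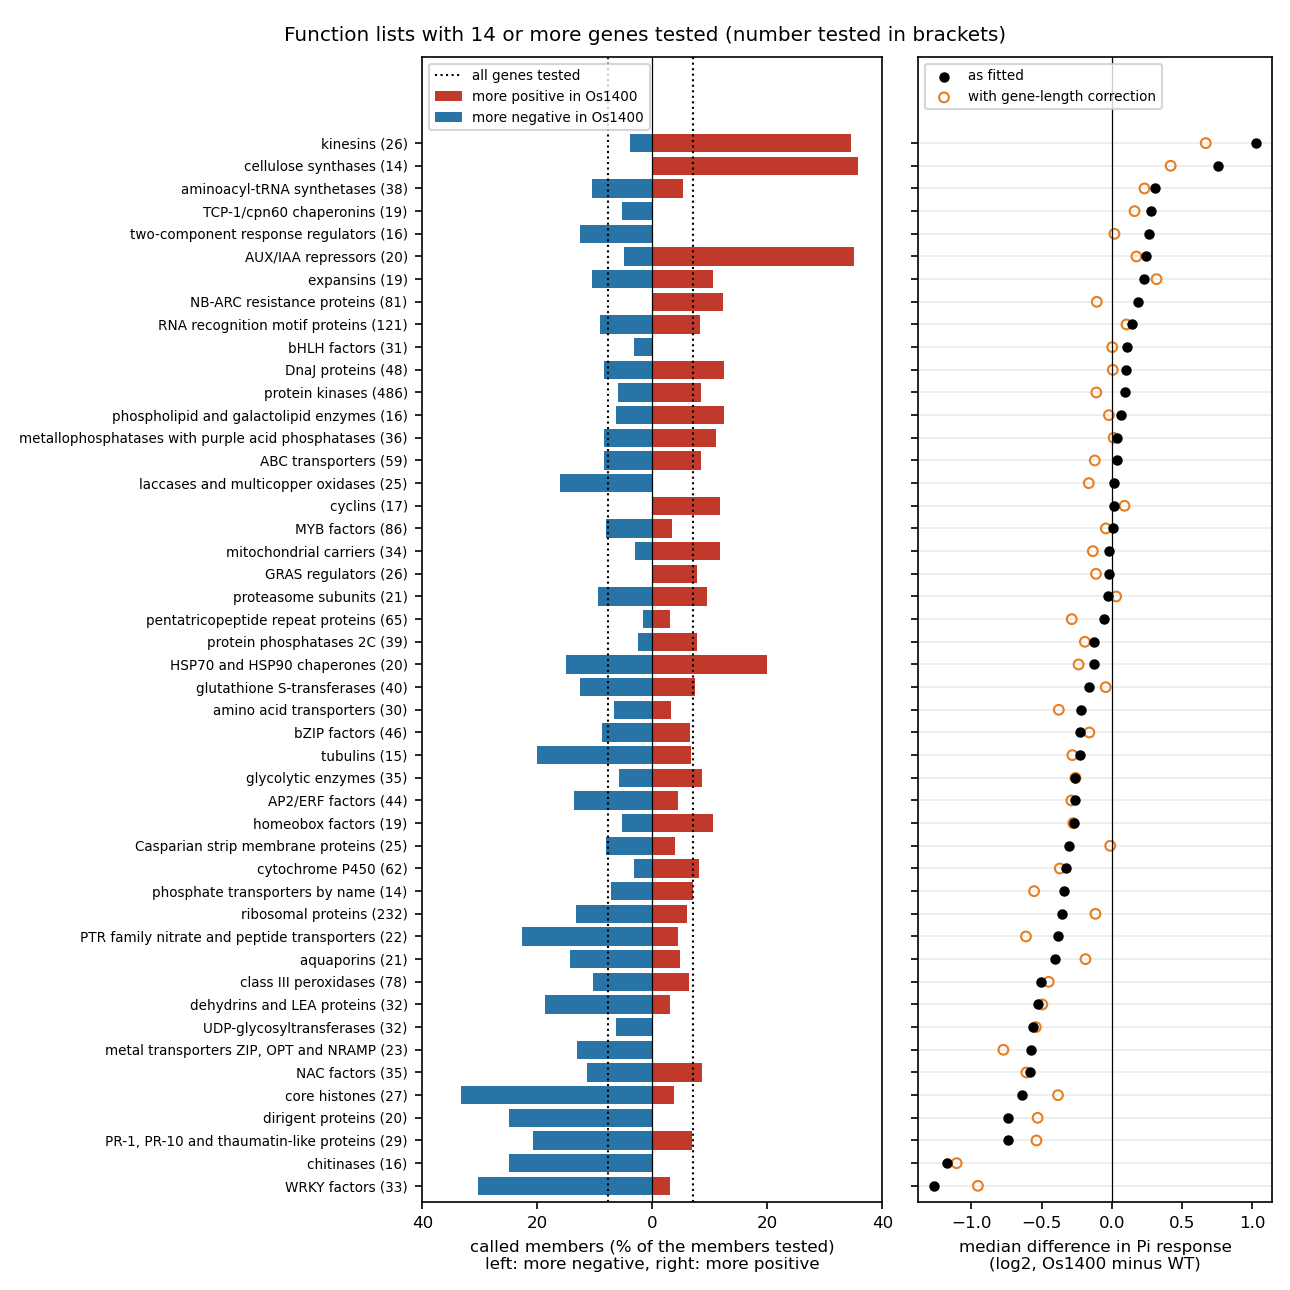
Left, share of the tested members of each function list that were called more positive (right bars) or more negative (left bars) in Os1400, in percent, with dotted lines at the 7.04% and 7.7% of all genes; right, the median difference of each list (log2), as fitted and with a gene-length correction. Kinesins and cellulose synthases lie at the positive end and WRKY factors and chitinases at the negative end in both versions.

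The difference in response ran with gene length. In count-weighted terms the WT low-Pi libraries held shorter genes, with a mean gene length of 1545 to 1607 bases per count against 1738 to 1805 in the other 9. Over the 15280 genes, Spearman's rho between the difference and gene length was 0.227, a description across genes that share the same 12 libraries. The median difference was -0.40 in the shortest of 5 equal classes of genes (121 to 988 bases) and 0.21 in the longest (2534 to 9536 bases). This came mainly from the WT response, whose median went from 0.49 to -0.29 over the 5 classes, while that of Os1400 went from 0.078 to -0.11. Genes called more positive in Os1400 had a median length of 2033 bases, and genes called more negative, 1223 bases. Of the lists above, core histones (median 781 bases) and ribosomal proteins (835 bases) were short, and kinesins (2917 bases), NB-ARC genes (3445 bases), and cellulose synthases (3926 bases) were long.

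A fit with an offset for gene length in each library, chosen after the relation was seen, called 924 genes more positive and 1135 more negative and shared 1749 of the 2252 calls, all in the same direction. In that fit 6 of 26 kinesins and 3 of 14 cellulose synthases were more positive, 6 of 27 core histones were more negative, and the median differences of these lists were 0.67, 0.42, and -0.38. WRKY factors (9 more negative, 1 more positive), chitinases (4 more negative), and AUX/IAA genes (8 more positive, 1 more negative) stayed within 1 gene of the counts above. NB-ARC genes turned to 5 more positive and 2 more negative with a median difference of -0.11, and protein kinases to 28 more positive and 45 more negative, also with a median of -0.11. PR-1, PR-10, and thaumatin-like genes turned to 2 more positive and 1 more negative. What part gene length has in the differences beyond these values was not tested.

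**Figure D5:**
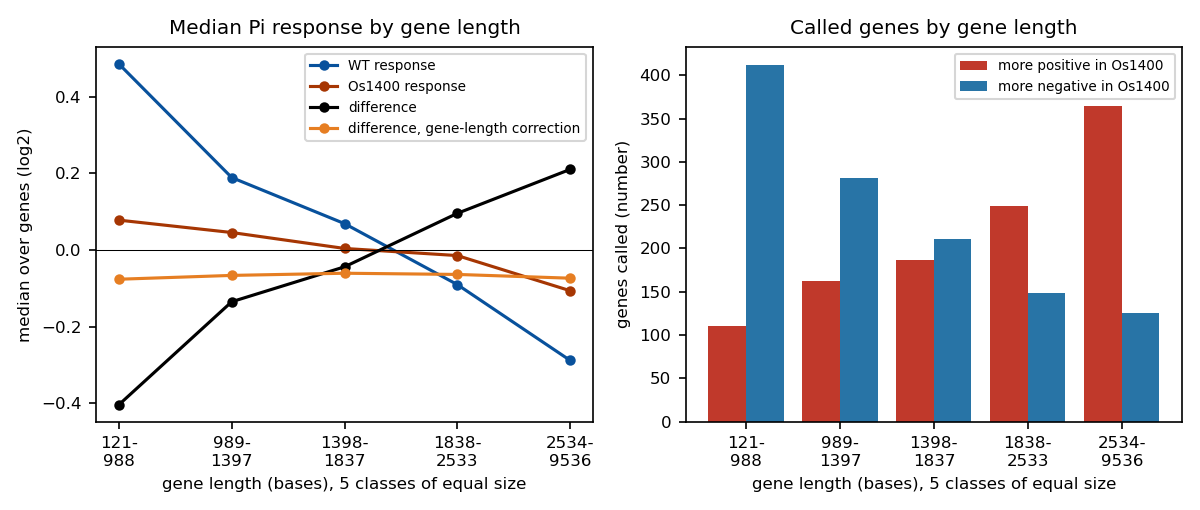
Left, median Pi response of WT and Os1400 and median difference (log2, y axis) in 5 equal classes of the tested genes by gene length (bases, x axis), with the difference after the gene-length correction; right, number of genes called more positive or more negative per class. The median difference climbed from -0.40 to 0.21 from the shortest to the longest class, and lay between -0.076 and -0.061 after the correction.

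Markers of other tissue were few among the tested genes. Of 16 chlorophyll a/b binding protein genes, which mark green tissue, 2 had enough counts in every library, and 1 of these was called more negative in Os1400. With filterByExpr the direction was mostly the other way. There 14 of these genes were tested, 2 were called more positive and 1 more negative, and the median difference was 5.40. Whether the groups differed in green tissue was not tested. Of 5 genes named as root-specific, 3 were tested and 1 was called more negative.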

How the data were processed

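Root RNA was sequenced in 12 libraries, 3 for each genotype and Pi supply, grouped by the sample labels. The submitters' processing notes name the aligner HISAT2 (2.0.5), the read counter featureCounts (1.5.0-p3), and DESeq2; the genome build, annotation release, and strand setting are not given in the sources used here. The deposited counts are whole reads per gene without normalization, in 2 tables (+Pi and low-Pi) that were joined by gene identifier; gene length, the authors' value, came from the same tables. Columns of the authors' own genotype comparisons (fold changes and p-values), a table of normalized values, and 40 further per-sample columns were not used. Total counts were 28271749 to 41078078 per library, so that a count of 3, the limit that a count of 0 allows, is 0.073 to 0.106 CPM for counting error only.

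Genes with 10 or more counts in all 12 libraries were fitted in R (4.3.3) with edgeR (4.0.16), TMM factors, 1 mean per group, and the quasi-likelihood test of the interaction, with Benjamini-Hochberg adjustment over all 15280 genes and a call at an adjusted p of 0.05 or less. SE is the fitted difference divided by the square root of F. CPM uses TMM-scaled library sizes. Named genes were the 3 annotated genes with the smallest p per class and direction, up to 2 called genes per direction in lists with at least 3 called, and every tested SPX, phosphate transporter, Pi signaling, and SL gene; some of the second kind enter the counts only. Function lists were made from domain accessions, names, or identifiers in the tables. Members and lists were chosen with earlier results of these data known. Alternatives were RLE and upper-quartile factors, TMM from all genes, filterByExpr, no filter, a minimum of 50 counts, DESeq2 (1.42.0), limma-voom (limma 3.58.1) with quality weights per group, each library left out, the replicate number as a block, each genotype alone, and, chosen after seeing the data, a gene-length correction (lowess of log2 CPM deviations on log2 gene length as offsets). The fit was tested on simulated data with the same spread in every group. That simulation does not cover the wider spread of the WT low-Pi libraries.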

Additional observations from a re-analysis of the deposited data

Results flagged for a closer look

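The difference between the Pi responses of the 2 genotypes was itself tested, and 2252 genes passed. Among the genes of opposite response that were chosen by p, the difference between the responses was 4.21 for Os09g0553200 (UDP-glucose pyrophosphorylase 1), 2.99 for Os03g0712700 (phosphoglucomutase domain), and 2.26 for Os04g0586200 (FCS-type zinc finger), each falling in WT and rising in Os1400 at low-Pi. It was -1.97 for Os06g0131300 (arginine decarboxylase), -1.72 for Os04g0450800 (histone H3.2A), and -1.66 for Os01g0104900 (transferase family), each rising in WT and falling in Os1400. These 6 values are on the log2 scale and passed the interaction test of edgeR with the adjusted p-values given in the report.

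Outside the genes compared, 7157 genes fell under 10 counts in the WT low-Pi libraries alone, against 39 in the Os1400 low-Pi libraries alone. Of the 7157, 1307 had at least 10 counts in each of the 9 other libraries and 0 counts in all 3 WT low-Pi libraries, and 3600 had 0 counts in exactly 1 of them.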

How the results depend on the processing

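Every alternative kept the direction of the 139 named genes that were called, where it tested them, and 103 of these kept the call in each alternative that tested them. Most of these genes were chosen for a small p in the same libraries that the alternatives fit again. Their kept direction is therefore no independent check. The number of genes whose response differed (2252) became 3838 with filterByExpr, 3706 with no filter, and 3390 with DESeq2, which called all of the 2252. Of genes more positive in Os1400 (1075) there were 3028 with filterByExpr and 2934 with no filter, and of genes more negative (1177), 772 with no filter and 1817 with DESeq2. Calls were more positive for 47.7% of genes in the fit reported, 78.9% with filterByExpr, 79.2% with no filter, and 57.2% with TMM factors from all genes, where the median difference of all genes was 0.38, 0.41, and 0.055 in the latter 3 against -0.04. A response in WT but not Os1400 (1198 genes) was found for 1829 with filterByExpr, the smaller class (491) held 1103 with filterByExpr and 1062 with no filter, the opposite class (322) held 677 and 659, and with DESeq2 the class of Os1400 alone (184) held 330 and the larger class (39) held 68. The Pi response of Os1400 (3340 genes) became 6518 in its 6 libraries alone, 6973 with DESeq2 on these, and 6860 with limma-voom and weights per group. That of WT (7396 genes) became 4946, 6175, and 5274 in the same settings. With 1 library left out, the counts ran from 1168 to 4484 for called genes, 547 to 2270 more positive, 602 to 2214 more negative, 624 to 2393 for WT alone, 239 to 828 smaller, 201 to 680 opposite, 69 to 424 for Os1400 alone, 18 to 91 larger, 5906 to 8487 for the WT response, and 2082 to 4877 for the Os1400 response.

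Of 23 named genes that were not called, 10 changed sign somewhere. Os03g0408600 had a difference of 0.048 with upper-quartile factors, 0.068 with TMM over all genes, 0.0695 with filterByExpr, 0.071 with no filter, and 0.45 with limma-voom, and Os04g0550600 one of 0.011 with limma-voom. With the gene-length correction the difference was -0.15 for Os06g0493600 and -0.19 for Os11g0104300. With 1 library left out, differences ran from -0.44 to 0.73 for Os03g0408600, -0.63 to 0.69 for Os04g0550600, -0.199 to 0.389 for Os06g0493600, -0.0268 to 0.58 for Os07g0438800, -1.03 to 0.19 for Os03g0203200, -0.36 to 0.0301 for Os03g0827500, -1.25 to 0.27 for Os01g0110100, -0.16 to 0.59 for Os01g0110050, and -0.54 to 0.053 for Os11g0186800. The cause was not tested.

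With the replicate number as a block, 2338 genes were called (1146 more positive, 1192 more negative), 2075 of them shared with the fit without the block. Libraries of the same number in different groups had correlations of their deviations between -0.079 and 0.449, 4 of 18 over 0.1, against -0.459 to 0.135 and 2 of 36 over 0.1 for libraries of different numbers. A total of 8 of 12 libraries correlated best with one of their own number, a hint from the data that some numbers go together. The largest values, 0.449 and 0.368, both paired WT low-Pi with Os1400 low-Pi, for replicates 3 and 2. For replicate 1 that pair was at -0.019, and the next largest value of a same-number pair was 0.143. Deviations from a mean of 3 libraries are tied to each other, so the 12 libraries are not independent here. The labels do not tie a number to a shared culture or batch and not every same-number pair was over 0.1, so the fit without the block was kept. Counts limit what low genes can show, since 3 counts correspond to 0.073 to 0.106 CPM.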

Other observations

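Of 25 genes with a multicopper oxidase domain, 4 were more negative and none more positive, a share of 16% that is near the 14.7% of all genes, and the median difference was 0.02. Os09g0365900, an ascorbate oxidase of the apoplast by its name, stood at 17.1, 16.04, and 14.99 CPM in WT +Pi, 65.8, 75.9, and 63.0 CPM in WT low-Pi, 21.1, 11.2, and 8.82 CPM in Os1400 +Pi, and 9.65, 15.3, and 7.96 CPM in Os1400 low-Pi (difference -2.41 ± 0.46 (SE), adjusted p = 0.0063). LACCASE 16 (Os07g0101000), of a family that polymerizes lignin, rose by 2.07 in WT, and Os1400 had a fitted response of 0.41 that did not pass the test (difference -1.66, adjusted p = 0.0079). Of 44 AP2/ERF transcription factors, many of which act in ethylene and stress responses, 6 were more negative and 2 more positive (18.2% called). With filterByExpr, 4 of 94 were more negative and 7 more positive. Os02g0157950 rose by 2.38 in WT to 182, 96.3, and 124 CPM and was at 32.8, 42.3, and 35.4 CPM in Os1400 low-Pi (difference -1.92, adjusted p = 0.0031). ETHYLENE RESPONSE FACTOR 48 (Os08g0408500) fell by 1.65 in WT and fell by 0.64 in Os1400 (difference 1.01, adjusted p = 0.0076).

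ABC transporters, which pump compounds across membranes with ATP, had 5 of 59 called in each direction (17% in all, near the 14.7% of all genes). Os05g0137200 (MULTIDRUG RESISTANCE 3) stood at 54.5, 53.8, and 58.0 CPM in WT +Pi, 3.56, 10.9, and 3.77 CPM in WT low-Pi, 52.0, 51.0, and 62.6 CPM in Os1400 +Pi, and 48.4, 55.2, and 56.5 CPM in Os1400 low-Pi (difference 3.14 ± 0.49 (SE), adjusted p = 0.0024). ABC TRANSPORTER I FAMILY MEMBER 14 (Os02g0810300) rose by 2.42 in WT, and Os1400 had a fitted response of 0.34 that did not pass the test (difference -2.08, adjusted p = 0.0017). Subunits of the proteasome, the protease that degrades proteins marked with ubiquitin, had 2 of 21 called in each direction. This is 9.5% each way, near the 7.04% and 7.7% of all genes. The beta4 subunit gene Os03g0695600 fell by 1.55 in WT (difference 1.82, adjusted p = 0.0014), whereas the alpha5 subunit gene Os11g0615700 rose by 0.89 in WT (difference -1.25, adjusted p = 0.012). Of 31 bHLH factors 1 was called (3.2%), and of 65 pentatricopeptide repeat genes 3 were (4.6%), against 14.7% of all genes. These shares depend on the filter. With filterByExpr, 6 of 70 bHLH factors were more positive and 1 more negative. Of 341 pentatricopeptide repeat genes, 79 were more positive and 1 more negative there.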
